A study of Mus musculus with 12 samples.

Results

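The genes of myelin and of the mature oligodendrocyte were described in single cells from the mouse hippocampus. They are 34 of the 32285 genes in the count matrix, and all 34 were found there. They came from a list of names chosen with earlier results of these data known. They were read in the cells that the authors annotated as oligodendrocytes, by library and by cluster, with oligodendrocyte precursor cells (OPCs) beside them. The animals were female C57/BL6J mice, 9 weeks old, given injections of cisplatin, a chemotherapy agent whose platinum atom binds DNA, or of phosphate-buffered saline (PBS) as the control. The groups PBS nonstim and Cisplatin nonstim had no sensory stimulation. PBS stim and Cisplatin stim were exposed to flickering light and sound pulses at 40 Hz, for 1 h a day over 21 days starting with the first injection, and hippocampi of all groups were taken on day 22. Each group had 3 libraries. By the series' design text, replicate 1 held both hippocampi of 1 animal and replicates 2 and 3 each pooled 4 hippocampi of 2 animals, whereas the samples' extraction protocol gives 2 animals for every library. The p-values therefore measure the spread between these libraries.

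Oligodendrocytes wrap axons in layers of their own plasma membrane. Compact myelin is held together by small basic and membrane-spanning proteins and is unusually rich in galactolipids, which the cell makes from ceramide. A mature oligodendrocyte also keeps a cytoplasmic channel system, contacts the axon at the edges of each sheath and carries chaperones and carbonic anhydrase, and the transcription factor Myrf keeps many of these genes switched on. OPCs are the dividing cells from which oligodendrocytes arise.

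The 12 libraries held 19834 cells, of which 4677 were oligodendrocytes (156 to 650 per library, with 989759 to 4946113 unique molecular identifiers, UMIs, in sum) and 894 were OPCs. Replicates 1 carry the prefix 20 in their library names and the others 21, called here the first and the second batch. Oligodendrocytes of the first batch had a median of 13.7 to 31.6% mitochondrially encoded UMIs. In the second batch the medians were 4.16 to 5.4% in the PBS and 6.03 to 6.91% in the cisplatin libraries, without overlap. Within the first batch Cisplatin stim replicate 1 stood apart, with the lowest mitochondrial median and a median of 7048 UMIs per oligodendrocyte against 3090 to 3299 in the other 3 libraries. Of the 434 oligodendrocytes of cluster 11, 432 came from the first batch. Ribosomal RNA-like transcripts (Gm42418, AY036118 and Lars2) took 1.86 to 3.65% of UMIs in PBS libraries when these belonged to the second batch (4 libraries), and 0.340 to 0.782% in the other 8, so in that batch they moved with the drug. Of all barcodes, 56 occurred in more than 1 library (112 cells).

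Mobp and Ugt8a had the largest rise and the largest fall among the members in the comparison of Cisplatin stim with PBS stim below, so the DNA just before their start sites is shown. RefSeq on GRCm38.p6 gave promoter windows for 25 of the 34 genes. The 250 bases upstream of each RefSeq start were searched. They are printed 5′ to 3′ on the gene's strand, less the 35 bases of the Mobp window that lie inside the gene as GENCODE places its start, with capitals for matches, on either strand, to ACAAAG, the core of the sequence bound by SOX factors such as Sox10.
Mobp: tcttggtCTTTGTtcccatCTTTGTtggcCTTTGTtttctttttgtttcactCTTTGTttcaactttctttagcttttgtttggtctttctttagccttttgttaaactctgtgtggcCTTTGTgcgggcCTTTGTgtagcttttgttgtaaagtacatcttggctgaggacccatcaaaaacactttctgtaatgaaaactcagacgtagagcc
Ugt8a: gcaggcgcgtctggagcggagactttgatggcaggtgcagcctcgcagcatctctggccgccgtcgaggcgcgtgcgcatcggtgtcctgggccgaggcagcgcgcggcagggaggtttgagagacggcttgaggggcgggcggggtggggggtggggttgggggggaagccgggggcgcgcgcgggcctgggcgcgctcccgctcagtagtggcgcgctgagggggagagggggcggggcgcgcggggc
The Mobp sequence lies at chr9:120149492-120149706 on the plus strand and holds 6 matches. Of all 32851 promoter windows, 1 held as many, which is this one, and 16.5% held any. The Ugt8a sequence lies at chr3:125938653-125938902 on the minus strand and has no match in these 250 bases. At least 1 match was found upstream of 7 listed genes, among them Cnp, Mag, Opalin and Tspan2. The letters CTGGCAC, bound by Myrf, were found upstream of Cnp, Hapln2 and Mag, in 4 of the 35 listed windows and in 4.19% of all windows. A match is a description of the sequence and no evidence of binding.

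The listed genes marked the annotated oligodendrocytes. This is a description, because they were listed as genes of that cell and the types were annotated in these same cells. Together the listed genes took 5.50% ± 0.398 (SD, n = 12 libraries) of oligodendrocyte UMIs, 0.454% ± 0.0480 of OPC UMIs, 0.204% ± 0.0420 in astrocytes and 0.110% ± 0.0421 in microglia. Over the 12 cell types, 31 of the 34 were highest in oligodendrocytes, and 15 stood at 10 times the next type or more. For Mog, a surface glycoprotein of the outermost myelin layer, the mean level was 15.6 UMIs per 10000 in oligodendrocytes and 0.0697 in astrocytes, the next type. For Opalin, a membrane glycoprotein of mature oligodendrocytes, the levels were 10.1 in oligodendrocytes and 0.0160 in OPCs.

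The 3 exceptions were genes with other strong sources. Enpp2, which encodes the lysophospholipase autotaxin, stood at 87.3 UMIs per 10000 in choroid plexus cells and 15.4 in oligodendrocytes. Gsn, which encodes the actin-severing protein gelsolin, was at 13.5 in fibroblasts and 8.17 in oligodendrocytes. Plekhb1 was at 4.47 in ependymal cells and 4.30 in oligodendrocytes, a difference within the spread of the oligodendrocyte libraries (SD 0.403).

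**Figure D1:**
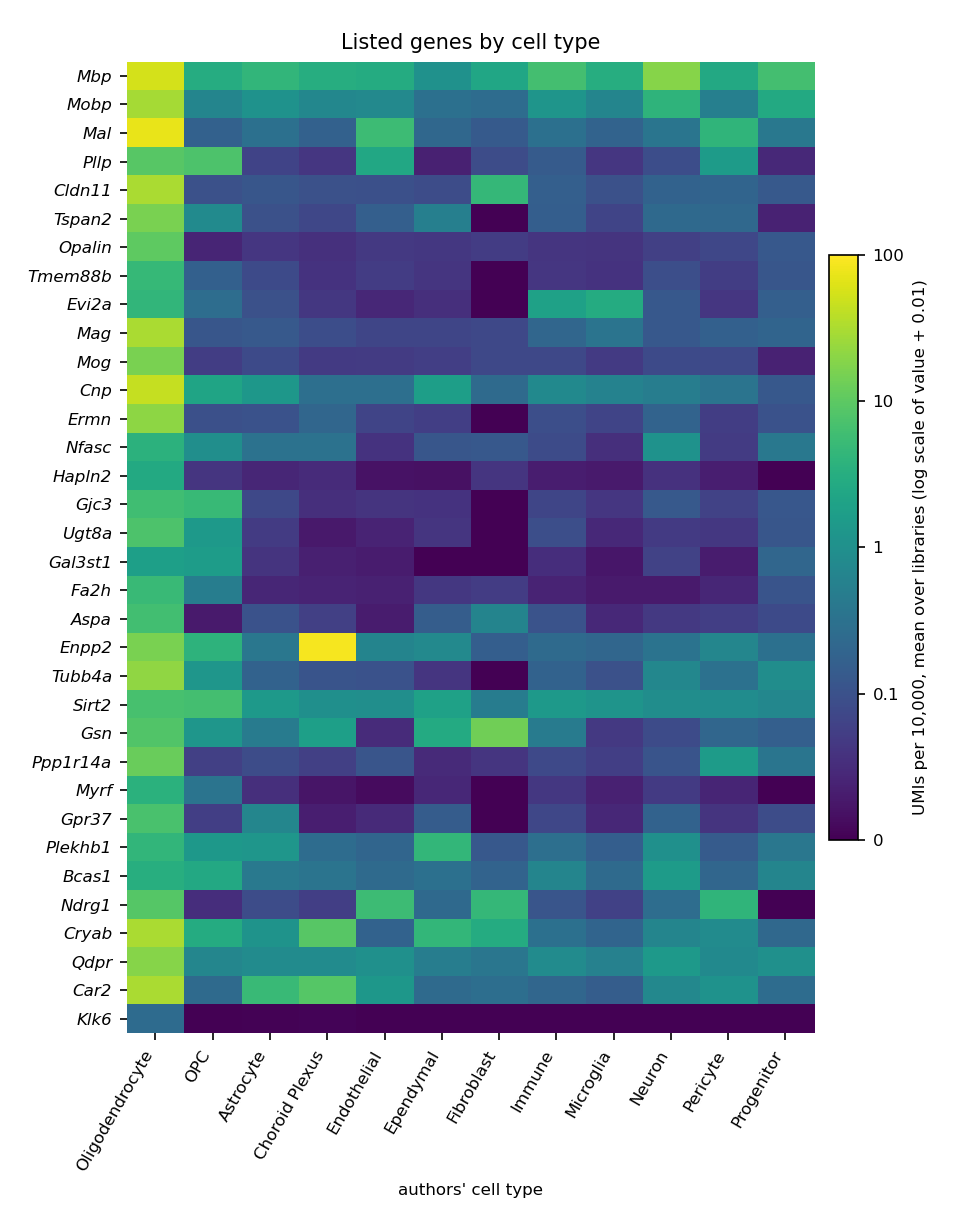
Mean level of each of the 34 listed genes (rows, ordered by role) in the authors' 12 cell types (columns), in UMIs per 10000 on a log colour scale, averaged over libraries with at least 10 cells of the type. The oligodendrocyte column is the brightest for 31 genes, and Enpp2 is brightest in choroid plexus.

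OPCs already carried 5 of the listed genes near the oligodendrocyte level. Sirt2, a tubulin deacetylase, was at 6.40 ± 0.979 UMIs per 10000 in OPCs and 6.83 ± 1.12 in oligodendrocytes (SD, n = 12 each). Pllp, a tetraspan myelin protein, was at 7.58 ± 1.70 and 8.98 ± 2.66, and Gjc3, a connexin, at 4.90 ± 0.614 and 5.87 ± 0.765. Gal3st1, the sulfotransferase that turns galactosylceramide into sulfatide, was at 1.61 ± 0.359 and 1.80 ± 0.194, and Bcas1, a marker of newly myelinating cells, at 2.58 ± 0.602 and 3.20 ± 0.427. The means differed by less than the larger SD for Sirt2, Pllp and Gal3st1 and by slightly more for Gjc3 and Bcas1. In contrast, Ugt8a, the enzyme one step before Gal3st1, was 5.24 times higher in oligodendrocytes. Aspa, which splits N-acetylaspartate into acetate and aspartate, was at 6.11 UMIs per 10000 in oligodendrocytes and at 0.00917 in OPCs, which is below its level in microglia (0.0189) and astrocytes (0.0908).

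Within the oligodendrocytes the authors' clusters differed in a few listed genes, given here as a description because the clusters were made from the same cells. In the second batch, Klk6, a secreted serine protease, averaged 0.747 UMIs per 10000 in cluster 8 (1032 cells in all), 0.0153 in cluster 2 (1830 cells) and 0.00637 in cluster 7 (1381 cells). Hapln2, a link protein of the nodal matrix, was at 4.63 in cluster 8, 1.86 in cluster 2 and 2.06 in cluster 7. Opalin ran the other way, at 5.55, 15.3 and 12.3, as did Mal, a raft proteolipid, at 57.7, 89.5 and 73.5. The listed genes together took 5.88%, 5.42% and 5.54% of UMIs in clusters 2, 7 and 8 of the second batch. In the first batch cluster 7 took 2.96%, and its cells had the fewest UMIs, with a median of 3493 over both batches, and the most mitochondrial UMIs among these 3 clusters, with a median of 11.1%. Cluster 7 made up 18.7 to 24.8% of the oligodendrocytes in the PBS and 25.7 to 30.9% in the cisplatin libraries of the second batch, without overlap. The shares of clusters 2 and 8 there were 44.3 to 55.6% and 23.7 to 28.8% over the 8 libraries.

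Cisplatin nonstim was compared with PBS nonstim, and Cisplatin stim with PBS stim, to describe the drug's difference without and with stimulation. Summed counts were tested with edgeR's quasi-likelihood test over 10094 genes, and a gene was called at a Benjamini-Hochberg adjusted p under 0.05. Without stimulation 3 of the 34 listed genes were called, against 6.25% of all genes tested. Mobp and Sirt2 were higher (3.33% of all genes were) and Cryab was lower (2.92%). Under stimulation 16 were called, against 14.5% of all genes. Mobp, Hapln2 and Sirt2 were higher (7.03% of all genes) and 13 were lower (7.49%). The median log2 fold change of the 34 was -0.01 without stimulation and -0.26 under it, beside 0.00 and 0.01 over all genes. Both comparisons share no library, and 24 of the 34 had the same sign in both. DESeq2 called 5 and 17 (4.61% and 10.7% of all genes it tested), limma-voom 5 and 18 (4.96% and 12.7%). The higher mitochondrial share and the higher share of cluster 7 in cisplatin libraries of the second batch moved with the drug. Without cells over 10% mitochondrial UMIs 5 and 18 listed genes were called (7.46% and 13.1% of all genes), and values within clusters are given below.

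**Figure D2:**
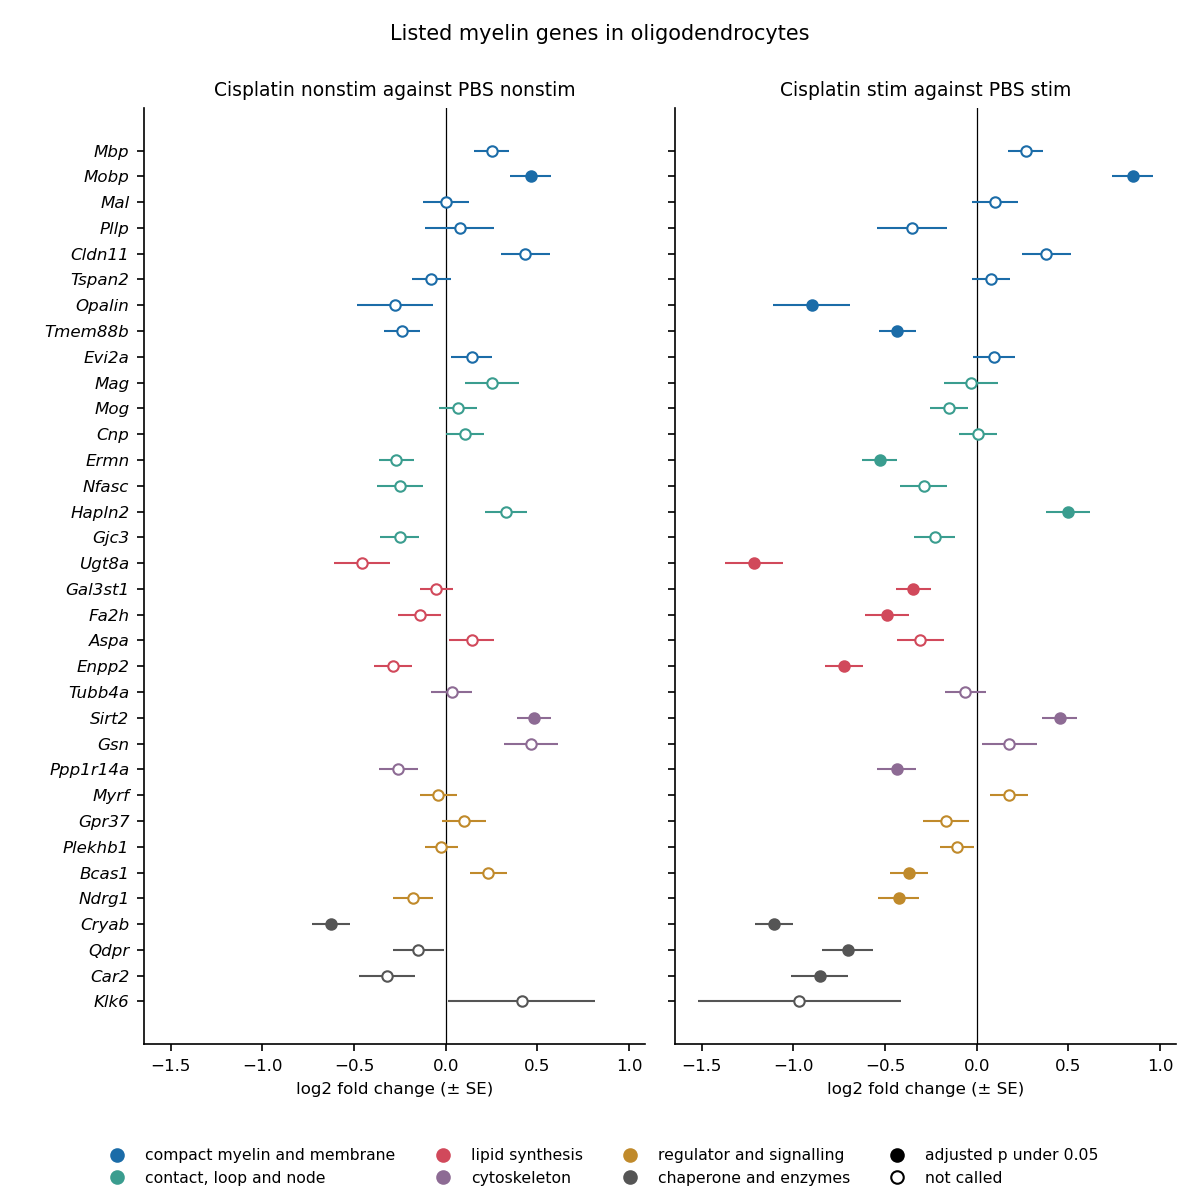
Log2 fold change with its standard error for each listed gene in oligodendrocytes, grouped by role, without stimulation (left) and with it (right), from 3 libraries per group. Filled points have an adjusted p under 0.05: 3 on the left and 16 on the right, where Ugt8a (-1.21) and Cryab (-1.11) lie lowest and Mobp (0.85) highest.

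Among the 9 membrane proteins of myelin, 1 rose and none fell without stimulation, and 1 rose and 2 fell under it. Mobp, a small basic protein of compact myelin (chr9:120149707-120181484, plus strand), was at 2464, 2316 and 2255 CPM (a gene's UMIs over a TMM-adjusted standard total, here and below in the order of replicates 1, 2 and 3) in PBS nonstim, 2175, 2354 and 2002 in PBS stim, 2708, 3691 and 3332 in Cisplatin nonstim and 3959, 4008 and 3805 in Cisplatin stim. All 6 cisplatin libraries were above all 6 PBS libraries, and the Cisplatin stim libraries were above the Cisplatin nonstim libraries. The log2 fold change was 0.46 ± 0.11 (SE, adjusted p = 0.0175) without stimulation and 0.85 ± 0.11 (adjusted p = 3.28e-05) under it. The call without stimulation was lost without PBS nonstim replicate 2 or 3 or Cisplatin nonstim replicate 2 or 3 (adjusted p 0.0752 to 0.154).

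Mbp, the main basic protein that compacts the cytoplasmic faces of the membrane, was at 5263, 4681 and 4749 CPM in PBS nonstim, 5881, 4732 and 4656 in PBS stim, 6127, 5530 and 5803 in Cisplatin nonstim and 6798, 5931 and 5612 in Cisplatin stim. The unstimulated groups did not overlap and the stimulated ones did. Its log2 fold changes of 0.25 ± 0.09 and 0.27 ± 0.09 did not pass the test (adjusted p = 0.124 and 0.0637). Opalin was at 909, 1109 and 1270 CPM in PBS nonstim, 1114, 1400 and 1208 in PBS stim, 577, 1244 and 1010 in Cisplatin nonstim and 276, 942 and 985 in Cisplatin stim. Cisplatin stim lay below PBS stim in every library, and its replicate 1 was lowest by far. Opalin fell by 0.90 on the log2 scale under stimulation (-0.90 ± 0.21, adjusted p = 0.00626), and by 0.54 without Cisplatin stim replicate 1. Tmem88b, a transmembrane protein, was at 449.5, 574 and 602 CPM in PBS nonstim, 483, 574 and 536 in PBS stim, 406, 478 and 488 in Cisplatin nonstim and 307, 475 and 408 in Cisplatin stim. The stimulated groups did not overlap, and the fold change was -0.43 ± 0.10 (adjusted p = 0.00594). The other 5 were not called in either comparison: Mal, Pllp, Cldn11, Tspan2 and Evi2a lay between -0.35 (Pllp under stimulation) and 0.43 (Cldn11, the tight-junction protein of the sheath, without stimulation, adjusted p = 0.0589).

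Of the 7 genes of axon contact, non-compact loops and nodes, none was called without stimulation, and 1 rose and 1 fell under it. Ermn, a cytoskeletal adaptor of late oligodendrocytes, was at 2168, 2504 and 2535 CPM in PBS nonstim, 2071, 2505 and 2419 in PBS stim, 1855, 2030 and 2084 in Cisplatin nonstim and 1304, 1812 and 1753 in Cisplatin stim. Every cisplatin library lay below every PBS library of its arm, with a log2 fold change of -0.27 ± 0.09 (adjusted p = 0.0978) without stimulation and -0.53 ± 0.10 (adjusted p = 0.000691) under it. Hapln2 was at 311, 218 and 205 CPM in PBS nonstim, 249, 208 and 229 in PBS stim, 311, 282 and 318 in Cisplatin nonstim and 312, 313 and 339 in Cisplatin stim. PBS nonstim replicate 1 reached the cisplatin level, whereas the stimulated groups were separate, and the log2 fold change there was 0.50 ± 0.12 (adjusted p = 0.00722).

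Mag, an adhesion molecule facing the axon, was at 4053, 2398 and 2536 CPM in PBS nonstim, 4021, 2629 and 2797 in PBS stim, 3452, 3478 and 3528 in Cisplatin nonstim and 2763, 3054 and 3209 in Cisplatin stim. The 2 PBS libraries of the first batch were the highest of the 12, and the groups overlapped. Its log2 fold changes of 0.25 ± 0.15 and -0.03 ± 0.15 were not called (adjusted p = 0.336 and 0.922). In the second batch alone Mag rose without stimulation, by 0.51 ± 0.08 (adjusted p = 0.000216). Mog was at 1733, 1416 and 1486 CPM in PBS nonstim, 1778, 1584 and 1526 in PBS stim, 1519, 1705 and 1622 in Cisplatin nonstim and 1361, 1500 and 1527 in Cisplatin stim, with overlapping groups and fold changes of 0.07 ± 0.10 and -0.15 ± 0.11 (adjusted p = 0.764 and 0.370). Cnp, a phosphodiesterase that keeps cytoplasmic channels open, Nfasc, a paranodal adhesion molecule, and Gjc3 were not called and lay between -0.29 and 0.10.

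Of the 5 lipid enzymes, none was called without stimulation and 4 fell under it, where the median log2 fold change was -0.49. Ugt8a adds galactose to ceramide to make galactosylceramide (chr3:125865271-125938619, minus strand). Its levels were 923, 982 and 982 CPM in PBS nonstim, 946, 926 and 982 in PBS stim, 809, 594 and 691 in Cisplatin nonstim and 275, 452 and 511 in Cisplatin stim. The PBS libraries were within a narrow band, all Cisplatin nonstim libraries lay below it, and all Cisplatin stim libraries lay lower again. The log2 fold change was -0.46 ± 0.15 without stimulation, which did not pass the test (adjusted p = 0.0807), and -1.21 ± 0.16 under it (adjusted p = 2.85e-05).

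Enpp2 (chr15:54838901-54952892, minus strand) was at 1866, 1724 and 1788 CPM in PBS nonstim, 2023, 1770 and 1676 in PBS stim, 1553, 1352 and 1509 in Cisplatin nonstim and 989.5, 1157 and 1151 in Cisplatin stim. Cisplatin libraries were below PBS libraries in both arms, with a log2 fold change of -0.29 ± 0.10 (adjusted p = 0.107) without stimulation and -0.72 ± 0.10 (adjusted p = 8.49e-05) under it. The 5 choroid plexus markers summed to 0.155 to 4.26 UMIs per 10000 oligodendrocyte UMIs in PBS nonstim, 2.16 to 16.3 in Cisplatin nonstim, 0.0707 to 3.15 in PBS stim and 1.22 to 3.67 in Cisplatin stim, and their part in the Enpp2 values was not tested. Fa2h, which hydroxylates the fatty acids of these lipids, was at 588.5, 529 and 582 CPM in PBS nonstim, 534, 564 and 606 in PBS stim, 529, 491 and 519.8 in Cisplatin nonstim and 309, 442 and 467 in Cisplatin stim. The stimulated groups were separate, and the log2 fold change was -0.49 ± 0.12 (adjusted p = 0.00832), or -0.32 without Cisplatin stim replicate 1.

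Gal3st1 fell under stimulation by 0.35 on the log2 scale (-0.35 ± 0.10, adjusted p = 0.0181), with 145 to 163 CPM in Cisplatin stim below 187 to 221 in PBS stim. That call was lost without PBS stim replicate 1 or 2 or Cisplatin stim replicate 3 (adjusted p 0.0587 to 0.0734). Aspa was not called, at 0.14 and -0.31 (adjusted p = 0.560 and 0.112).

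Of the 4 cytoskeletal genes, Sirt2 rose in both comparisons. Sirt2 (chr7:28766735-28788661, plus strand) was at 631, 544 and 503 CPM in PBS nonstim, 641, 559.6 and 596 in PBS stim, 848, 756 and 731 in Cisplatin nonstim and 810.2, 823.5 and 818.5 in Cisplatin stim. All 6 cisplatin libraries were above all 6 PBS libraries, and both cisplatin groups overlapped. The log2 fold change was 0.48 ± 0.09 (adjusted p = 0.00533) without stimulation and 0.45 ± 0.09 (adjusted p = 0.00258) under it, and the first was lost without PBS nonstim replicate 3 (adjusted p = 0.0537). Ppp1r14a, an inhibitor of myosin phosphatase, was at 1117, 1379 and 1555 CPM in PBS nonstim, 1057, 1536 and 1403 in PBS stim, 884, 1263 and 1263 in Cisplatin nonstim and 652, 1149 and 1208 in Cisplatin stim. First-batch libraries were the lower ones in every group, so the groups overlapped although each batch was lower under cisplatin. Ppp1r14a fell under stimulation (-0.44 ± 0.11, adjusted p = 0.00850), and Tubb4a, a tubulin of myelinating cells, and Gsn were not called.

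Of the 5 regulators and signalling genes, none was called without stimulation and 2 fell under it. Myrf was at 352, 324 and 380.5 CPM in PBS nonstim, 339, 340.5 and 329 in PBS stim, 351.5, 328 and 347 in Cisplatin nonstim and 327, 402 and 410.2 in Cisplatin stim. Its groups overlapped, with fold changes of -0.04 ± 0.10 and 0.18 ± 0.10 (adjusted p = 0.860 and 0.281). Ndrg1, a protein needed for the upkeep of peripheral myelin, was at 899, 982 and 938 CPM in PBS nonstim, 1063, 953 and 942 in PBS stim, 926, 717 and 849 in Cisplatin nonstim and 652, 779 and 766 in Cisplatin stim. The stimulated groups were separate (-0.43 ± 0.11, adjusted p = 0.0128), but the call was lost without PBS stim replicate 1 or Cisplatin stim replicate 1 (adjusted p = 0.0652 and 0.0554).

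Bcas1 was higher in every cisplatin library without stimulation. Its log2 fold change was 0.23 ± 0.10 there (adjusted p = 0.189) and -0.37 ± 0.10 (adjusted p = 0.0212) under it. The fall was lost without PBS stim replicate 1 or 2 or Cisplatin stim replicate 3 (adjusted p 0.0660 to 0.131). Gpr37, a receptor, and Plekhb1 were not called and lay between -0.17 and 0.10.

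Of the 4 genes of the chaperone and enzyme group, 1 fell without stimulation and 3 fell under it, where the median log2 fold change was -0.91. Cryab, the small heat-shock protein alpha-B crystallin (chr9:50751325-50756636, plus strand), was at 4705, 4056 and 3416 CPM in PBS nonstim, 5236, 3638 and 3353 in PBS stim, 3152, 2256 and 2509 in Cisplatin nonstim and 2262, 1668 and 1703 in Cisplatin stim. Cisplatin libraries lay below PBS libraries in both arms. The log2 fold change was -0.63 ± 0.10 (adjusted p = 0.00127) without stimulation and -1.11 ± 0.10 (adjusted p = 6.08e-07) under it, and both calls held in each of the 12 fits that left out 1 library.

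Car2, carbonic anhydrase II, was at 3285, 3628 and 3989 CPM in PBS nonstim, 3472, 4054 and 3576 in PBS stim, 2897, 2769 and 2997 in Cisplatin nonstim and 1222, 2450 and 2624 in Cisplatin stim. Cisplatin groups were below PBS groups in both arms, and Cisplatin stim replicate 1 was at less than any other library. The fold change was -0.32 ± 0.15 (adjusted p = 0.236) without stimulation and -0.86 ± 0.16 (adjusted p = 0.000788) under it. Qdpr, which regenerates the cofactor tetrahydrobiopterin, was at 1909, 2089 and 2134 CPM in PBS nonstim, 2358, 2355 and 2067 in PBS stim, 1507, 2006 and 2066 in Cisplatin nonstim and 930.5, 1628 and 1717 in Cisplatin stim. Only the stimulated groups were separate, with a log2 fold change of -0.70 ± 0.14 (adjusted p = 0.00173). Klk6 ranged from 9.06 to 66.3 CPM over the 12 libraries and was not called.

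**Figure D3:**
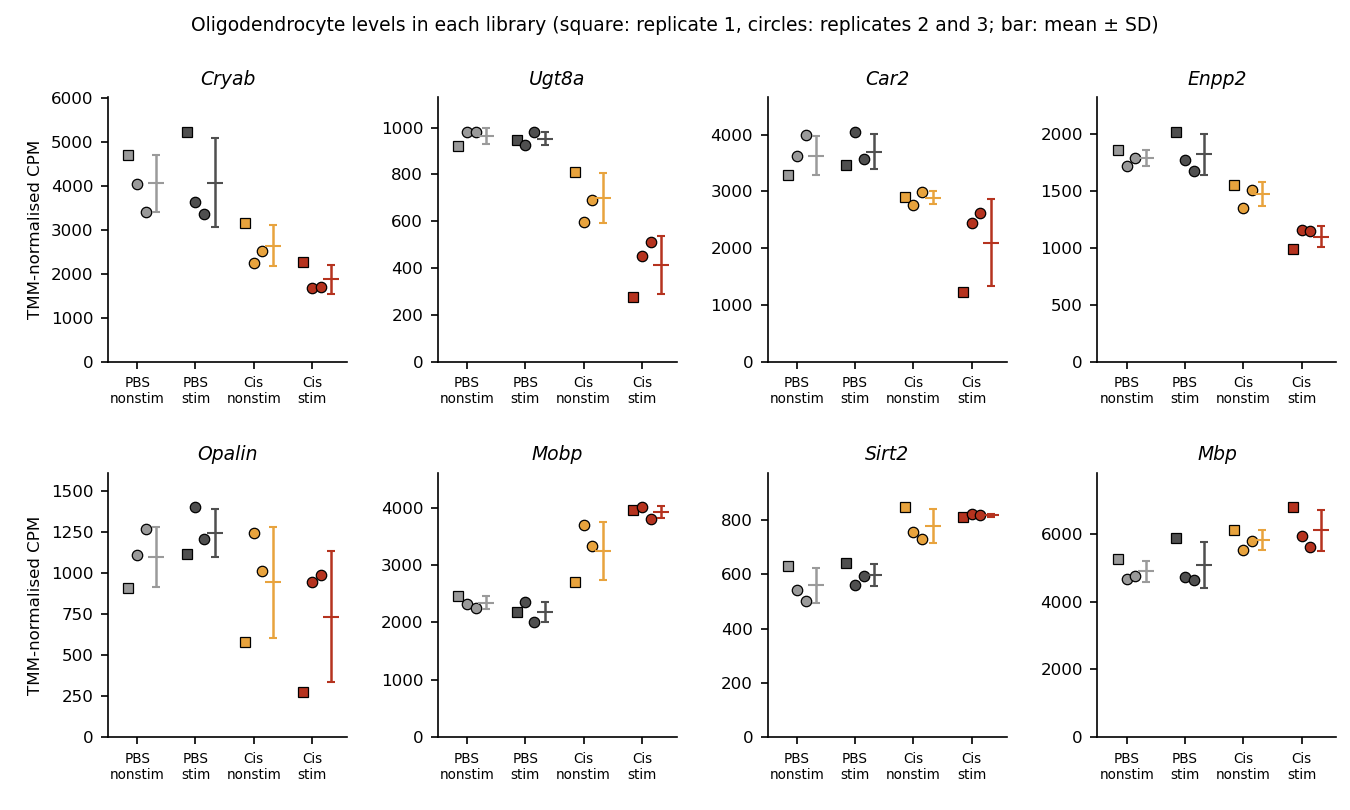
TMM-normalised CPM in oligodendrocytes for 8 listed genes in each of the 12 libraries, on linear axes from 0. Squares are replicate 1, circles replicates 2 and 3, and bars the mean ± SD of 3 libraries. Cryab, Car2 and Enpp2 are lower in both cisplatin groups, Mobp and Sirt2 higher, and Mbp shifts by 0.25 to 0.27 on the log2 scale.

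Groups did not overlap for 10 of the 34 genes without stimulation (5 higher and 5 lower under cisplatin), against 17.7% of all genes, and for 17 under it (3 higher and 14 lower), against 27.6%. Antisense exons overlap Cryab (Hspb2), Sirt2 (Nfkbib), Ermn (Galnt5), Cnp (Dnajc7), Enpp2, Qdpr, Ndrg1, Bcas1, Tspan2 and Pllp, so reads could be shared if the counting ignored strand, which no label or header seen here states. Gm38642 overlaps Mobp and Evi2 overlaps Evi2a on the same strand, where reads could be shared either way, and the values of these genes are uncertain to that extent.

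The first batch and the second did not give the same picture without stimulation. With the 8 libraries of the second batch alone, 20 of the 34 listed genes were called in Cisplatin nonstim against PBS nonstim, 11 higher and 9 lower, against 18.5% of all genes tested in that fit. Besides Mobp and Sirt2, those that rose were Cldn11 (0.62 ± 0.08), Gsn (0.62 ± 0.09), Mag, Hapln2, Pllp, Evi2a, Gpr37, Mbp and Aspa. Besides Cryab, those that fell were Ugt8a (-0.61 ± 0.09), Nfasc, Gjc3, Car2, Enpp2, Ndrg1, Ermn and Tmem88b. Of these 20, 12 had the same sign in the ratio of both replicate 1 libraries of the first batch. Pllp, for one, went from 743 to 488.5 CPM between those replicate 1 libraries and from 789 and 977 to 1155 and 1171 in the second batch.

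Under stimulation, 21 of the 34 were called in the second batch alone, 6 higher and 15 lower, against 16.1%. Here 19 of the 21 had the same sign in the first batch. Ribosomal RNA-like transcripts differ between the PBS and cisplatin libraries of that batch, as given above. With their share as a covariate, 12 listed genes were called by edgeR under stimulation (5.36% of all genes). Of the 16 calls without the covariate, Bcas1, Gal3st1, Hapln2, Ndrg1, Sirt2 and Tmem88b were lost (adjusted p 0.0607 to 0.376). The 12 therefore include genes outside those 16. Without stimulation the 3 calls were lost, and 0.0693% of all genes were called, against 6.25% without the covariate. Cryab was at -0.66 (adjusted p = 0.199), Sirt2 at 0.34 (0.605) and Mobp at 0.29 (0.758). The share moved with the drug in the second batch in both comparisons, so this fit cannot tell drug from covariate there.

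**Figure D4:**
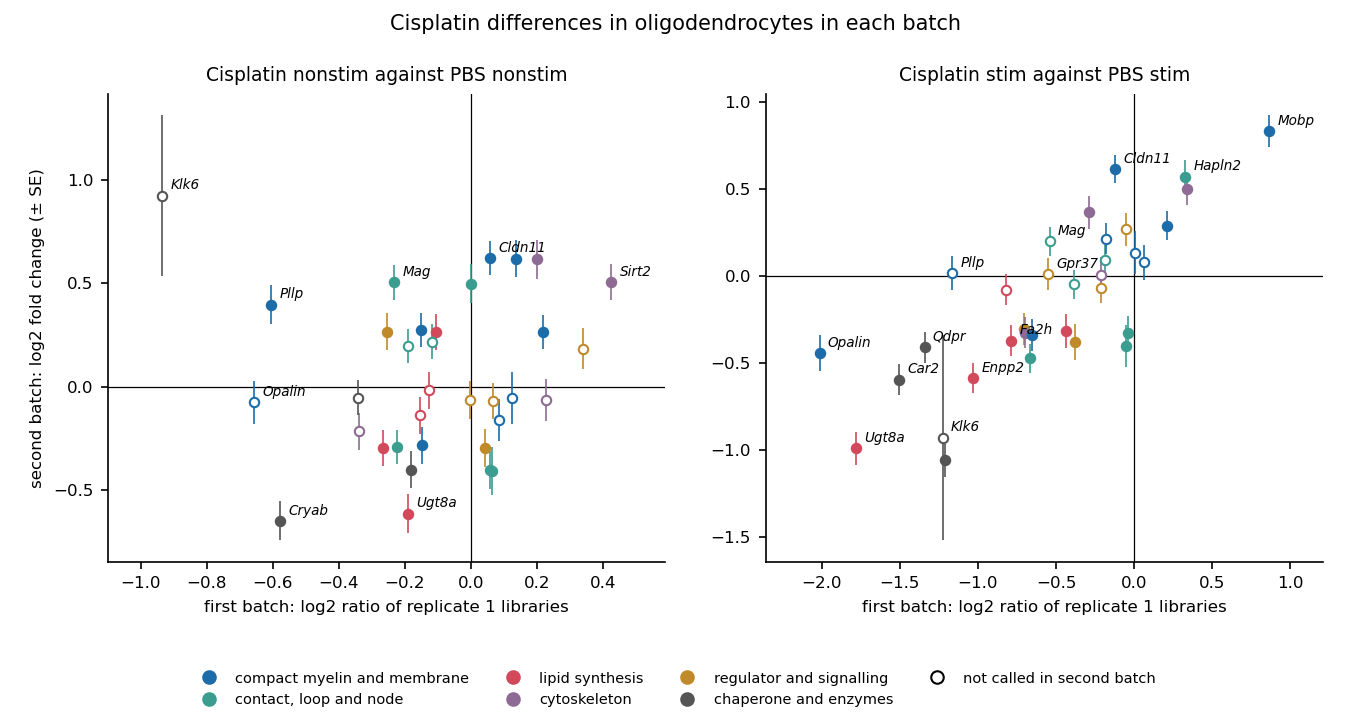
For each listed gene, the log2 ratio of the replicate 1 libraries (first batch, x axis) and the log2 fold change in the second batch with its standard error (y axis), without stimulation (left) and with it (right). Points in the upper right or lower left have 1 sign in both batches: 19 of 34 on the left and 25 of 34 on the right.

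The falls under stimulation were also seen inside the authors' clusters. These clusters are parts of the sums in which the genes were called, so likeness in sign is no independent support. In cluster 2, 2 listed genes rose and 4 fell (5.94% of all genes called), in cluster 7, 3 rose and 9 fell (6.95%), and in cluster 8, 2 rose and 10 fell (7.55%). Mobp (1.00, 1.07 and 0.75), Cryab (-0.97, -1.33 and -0.77), Ugt8a (-1.09, -1.12 and -1.36), Car2 (-0.74, -0.86 and -0.74) and Enpp2 (-0.88, -0.71 and -0.63) were called in clusters 2, 7 and 8 alike. Opalin was at -0.55 ± 0.23 in cluster 2, where it was not called (adjusted p = 0.160), at -0.94 in cluster 7 and at -1.70 in cluster 8. The difference between clusters was not tested.

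**Figure D5:**
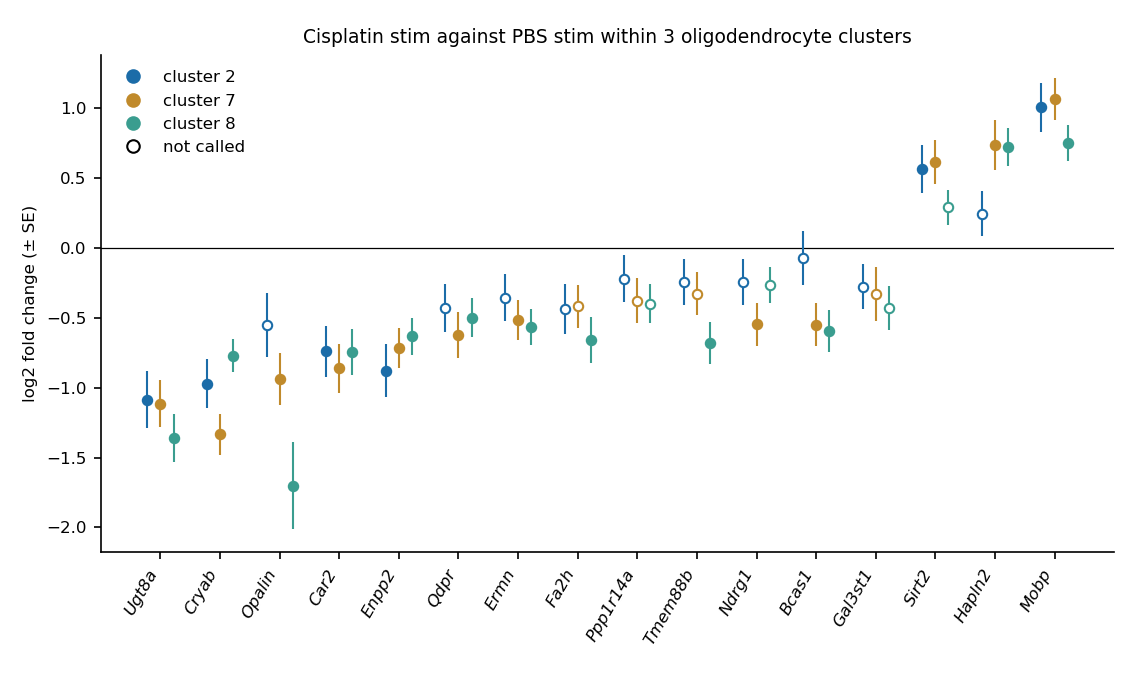
Log2 fold change with its standard error of Cisplatin stim against PBS stim within clusters 2, 7 and 8, for the 16 listed genes called in all oligodendrocytes. Filled points have an adjusted p under 0.05 within the cluster. All 48 values have the sign of the value in all oligodendrocytes, a sum that holds these same cells.

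Stimulation itself was compared within PBS mice and within cisplatin mice. In PBS mice no listed gene was called by edgeR (0% of all 10094 genes). There 1 listed gene, Bcas1 (0.30 ± 0.10), had an unadjusted p under 0.05, against 2.88% of all genes. DESeq2 and limma-voom called none (0% of all genes in each). The log2 fold changes ran from -0.11 to 0.30. In cisplatin mice 2 listed genes fell further under stimulation, against 0.991% of all genes called, 0.723% higher and 0.267% lower. They were Ugt8a (-0.77 ± 0.16, adjusted p = 0.0161) and Cryab (-0.49 ± 0.10, adjusted p = 0.0194). Of the 34, 26 had a negative value, with a median of -0.19 beside 0.01 over all genes. The groups did not overlap for 9 genes (1 higher and 8 lower), against 12.2% of all genes. The Ugt8a value was -0.50 without Cisplatin stim replicate 1 (adjusted p = 0.0582), and neither call held in all 12 fits that left out 1 library. The Cryab call was lost without Cisplatin nonstim replicate 1 or 3 or Cisplatin stim replicate 2 or 3 (adjusted p 0.0527 to 0.122), the Ugt8a call also without Cisplatin nonstim replicate 1 or 3 (0.133 and 0.0584).

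Whether the drug's difference itself changed with stimulation was tested as an interaction. None of the 34 was called by edgeR (0.0892% of all genes were), none by limma-voom (0.0396%) and 1 by DESeq2 (0.281%). An unadjusted p under 0.05 in edgeR was found for 11 (8.09% of all genes). The log2 value was negative for 27 of the 34, with a median of -0.23 beside 0.005 over all genes. Bcas1 (-0.60 ± 0.15, adjusted p = 0.175), Ugt8a (-0.76 ± 0.22, 0.290) and Cryab (-0.48 ± 0.14, 0.321) had the smallest p. The larger count of calls under stimulation is therefore not shown to be a difference between the arms.

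In OPCs 21 of the 34 genes passed the filter on low counts, and none was called by edgeR in the 5 comparisons. Over all genes tested in OPCs 0.299% were called for the drug without stimulation, 0.716% under it, 0.0521% for stimulation in cisplatin mice, 0% in PBS mice and 0.013% in the interaction. An unadjusted p under 0.05 was found for 8, 1, 2, 4 and 1 listed genes in these comparisons, where 9.88%, 11%, 5.3%, 4.01% and 5.1% of all genes had one. DESeq2 called none and limma-voom 1, for the drug without stimulation. Mbp was at 385, 87.4 and 105 CPM in PBS nonstim OPCs, 646, 293 and 108 in PBS stim, 619.7, 169 and 163 in Cisplatin nonstim and 875, 259 and 196 in Cisplatin stim. Libraries of the first batch were the highest in every group. The 5 oligodendrocyte markers other than Mbp and Mobp summed to 0.158 to 0.738 UMIs per 10000 OPC UMIs in PBS nonstim, 0.0906 to 0.459 in PBS stim, 0.224 to 0.701 in Cisplatin nonstim and 0.212 to 0.389 in Cisplatin stim, with overlapping groups. The Mbp log2 fold changes were 0.76 ± 0.20 (adjusted p = 0.117) for the drug without stimulation and 1.00 ± 0.20 (adjusted p = 0.0791) for stimulation in PBS mice. Gal3st1 was at 172, 134 and 101 CPM in PBS nonstim OPCs and 209, 210.4 and 204 in Cisplatin nonstim, so the groups did not overlap (0.60 ± 0.17, adjusted p = 0.154). Ugt8a was at 124 to 159.8 CPM in the PBS and 141 to 185 in the cisplatin libraries.

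Myelin transcripts were also counted in microglia and astrocytes. Mbp in microglia was at 420.4, 99.7 and 119 CPM in PBS nonstim and 641.5, 141 and 310.2 in Cisplatin nonstim, a log2 fold change of 0.88 ± 0.20 (adjusted p = 0.0157). Mobp there rose by 0.72 ± 0.16 (adjusted p = 0.0148) without stimulation and by 0.93 ± 0.19 (adjusted p = 0.00562) under it, against 3.59% and 5.24% of all genes called, and 20 of the 34 genes were tested. In astrocytes, where 27 were tested, Mobp rose without stimulation (0.84 ± 0.18, adjusted p = 0.0271, against 0.364%) and under it edgeR called no listed gene (2.6% of all genes). There 6 had an unadjusted p under 0.05 (15.4% of all genes), and DESeq2 and limma-voom called none. The 5 oligodendrocyte markers other than Mbp and Mobp summed to 0.382 to 1.12 UMIs per 10000 microglial UMIs in PBS nonstim, 0.470 to 0.887 in Cisplatin nonstim, 0.382 to 0.636 in PBS stim and 0.350 to 0.529 in Cisplatin stim, with overlapping groups, against 84.2 to 126 in oligodendrocytes. In astrocytes they summed to 0.272 to 0.682 in PBS nonstim and 0.326 to 0.899 in Cisplatin nonstim. The part of oligodendrocyte RNA in these Mbp and Mobp values was not tested. Without Cisplatin stim replicate 1 no listed gene was called in microglia under stimulation, without PBS nonstim replicate 2 none was called there without it, and the astrocyte call was lost without PBS nonstim replicate 1 or 2 or any 1 Cisplatin nonstim library. In endothelial cells, where 16 were tested, Mal and Ndrg1, which those cells also express, rose under cisplatin in stimulated mice (0.78 ± 0.16 and 0.84 ± 0.17, adjusted p = 0.00921 and 0.00651, against 2.53% of all genes).

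Other genes of the lineage were read from further lists, whose counts stand against the 6.25% (without stimulation) and 14.5% (under it) of all genes called. The lists were chosen with earlier results of these data known, so their shares are a description and no test of the lists. Of 31 other myelin and oligodendrocyte genes, 2 rose and 4 fell without stimulation (19.4%), and 2 rose and 10 fell under it (38.7%). Apod, a lipid-binding lipocalin, was at 3119, 2648 and 2986 CPM in PBS nonstim, 2700, 2661 and 2425 in PBS stim, 4899, 3765 and 4389 in Cisplatin nonstim and 6927, 7282 and 6447 in Cisplatin stim. All cisplatin libraries exceeded all PBS libraries, and Cisplatin stim exceeded Cisplatin nonstim (0.57 ± 0.10 without stimulation, 1.41 ± 0.11 under it, adjusted p = 0.00308 and 3.68e-08). Tppp3 rose too (0.46 and 1.23). Sec11c (-0.68 and -0.83), Gamt, which makes creatine (-0.55 and -0.95), and Tppp, a tubulin-polymerising protein (-0.44 and -0.84), fell in both.

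Of 9 lineage regulators, 1 rose and 1 fell without stimulation (22.2%) and 2 each under it (44.4%). St18 fell (-0.53 and -0.93) and Nkx6-2, a homeobox factor of maturing oligodendrocytes, rose (0.43 and 0.53), and Zfp488 (1.22) rose and Sox10 (-0.42) fell under stimulation. Of 13 sphingolipid enzymes 2 rose without stimulation (15.4%), and 2 rose and 1 fell under it (23.1%). Psap, the precursor of the saposins that help break down sphingolipids in lysosomes, rose in both (0.74 and 1.14), and Sptlc2, a subunit of the enzyme that starts sphingolipid synthesis, fell under stimulation (-0.49). In OPCs Psap also rose (0.79 and 0.92), as did Pmp22 (0.89 and 0.96), which in oligodendrocytes fell under stimulation (-0.76).

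Of 13 stress and subtype genes, 5 rose and 2 fell without stimulation (53.8%) and 3 each under it (46.2%). C4b, a complement component, rose (1.21 and 0.96), as did Ptgds, a prostaglandin synthase and secreted carrier that choroid plexus and meninges also make (0.85 and 1.02), and Sgk1, a kinase induced by glucocorticoids (1.29 and 1.92). Il33, a nuclear cytokine, fell (-0.44 and -0.83), as did Jph4 (-0.95 and -1.53). Of the newly formed oligodendrocyte and OPC lists, 3 of 7 and 2 of 9 genes were tested in oligodendrocytes, and Fyn (0.76 under stimulation) was the 1 called.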

How the data were processed

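Per the labels, 10x Genomics 3′ v3.1 libraries were made from dissociated hippocampi. The submitters' processing notes name Cell Ranger 5.0.0, Scanpy and mm10, without roles. The deposited matrix holds UMI counts per cell and gene. The authors' total per cell, a deposited signal with decimals, entered no test. Cell types and clusters are the authors', no doublet caller was run here, and the labels do not say how the authors treated doublets. Since cells of 1 library are not replicates, their counts were added up within each cell type (at least 10 cells) and fitted with edgeR 4.0.16 in R 4.3.3 (quasi-likelihood, TMM, filterByExpr, groups plus batch, all 12 libraries, Benjamini-Hochberg over all genes of a type and comparison). The fit was also run on simulated counts with known changes. These had no batch difference, so that run does not cover the batches seen here. Each SE of an edgeR log2 fold change was derived from the test, as the size of the fold change over the square root of its F statistic. Alternatives used DESeq2 1.42.0 and limma 3.58.1 (voom). The 3′ counts do not scale with transcript length. Deviations from group means were correlated between libraries of 1 replicate number. In oligodendrocytes all pairs exceeded 0.1 (0.102 to 0.390) except number 3 of PBS stim and Cisplatin stim (0.0872). Number 1 also marks the batch, and libraries of unlike numbers were not correlated, so these values cannot tell pairing from batch. The main fit held the batch and not the replicate number, which entered an alternative fit as a block over all libraries. Printed library by library are the 14 called genes with the smallest p, plus Mbp, Mag, Mog and Myrf. The endothelial values and the other examples were chosen after the values were seen. Members and lists were chosen with earlier results of these data known.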

Additional observations from a re-analysis of the deposited data

Results flagged for a closer look

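Apod in oligodendrocytes had a larger cisplatin difference under stimulation than without it: the interaction in edgeR's fit was 0.83 ± 0.15 on the log2 scale (adjusted p = 0.0246), and the lowest Cisplatin stim library (6447 CPM) was above the highest Cisplatin nonstim library (4899 CPM). Enpp2 differed in direction between cell types without stimulation: every Cisplatin nonstim library was below every PBS nonstim library in oligodendrocytes (-0.29) and above in OPCs (0.43) and astrocytes (0.83), values of which none passed the test. The difference between cell types was not tested. The 5 choroid plexus markers come from cells with the highest Enpp2 level. Per 10000 astrocyte UMIs they summed to 0.129 to 1.17 in PBS nonstim and 4.40 to 15.6 in Cisplatin nonstim. Per 10000 OPC UMIs they summed to 0.136 to 1.467 in PBS nonstim and 2.204 to 59.93 in Cisplatin nonstim. In microglia the Enpp2 groups overlapped, with a log2 fold change of 1.32 (edgeR, adjusted p = 0.0706). There the markers summed to 0.1634 to 1.236 in PBS nonstim and 2.552 to 16.04 in Cisplatin nonstim. The part of choroid plexus RNA in these Enpp2 values was not tested.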

How the results depend on the processing

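Counts below are listed genes called at an adjusted p under 0.05, and the cause of each shift was not tested. For oligodendrocytes the percentages in brackets are shares of all genes called in the same fit, which moved between settings too. For cisplatin without stimulation in oligodendrocytes (3 calls, 6.25%) DESeq2 gave 5 (4.61%), limma-voom 5 (4.96%) and no low-count filter 8 (4.99%). Leaving out cells over 10% mitochondrial UMIs gave 5 (7.46%) and the second batch alone 20 (18.5%). No batch term gave 0 (1.03%) and the ribosomal RNA-like covariate 0 (0.0693%). Leaving out 1 library gave 1 (PBS nonstim replicate 3, 1.56%) to 10 (Cisplatin stim replicate 1, 8.89%). Under stimulation (16 calls, 14.5%) cluster 2 alone gave 6 (5.94%), and leaving out 1 library 14 to 17 (8.89% to 15.6% over these fits). Other alternatives moved that count by 1.5 times or less, but single calls were lost in them. With no batch term these were Bcas1, Gal3st1, Opalin, Ppp1r14a and Tmem88b, and without cluster 11 Ppp1r14a. For stimulation in cisplatin mice (2 calls, 0.991%) DESeq2 gave 4 (1.58%), no low-count filter 9 (1.75%) and no batch term 0 (0.149%). Clusters 2, 7 and 8 alone gave 0 (0.281%), 4 (0.923%) and 1 (0.343%). Omitting cluster 11 gave 1 (0.551%), and leaving out 1 library 0 to 2 (0.282% to 1.2% over these fits). The interaction (0 calls, 0.0892%) gave 1 with DESeq2 (0.281%) and 6 with no low-count filter (0.876%).

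In OPCs (0 calls) cisplatin without stimulation gave 1 with limma-voom, 1 with no low-count filter, 2 in the second batch alone, 1 with the ribosomal RNA-like covariate and 0 to 1 leaving out 1 library. Stimulation in PBS mice gave 1 with no low-count filter, 1 with that covariate and 0 to 1 leaving out 1 library. In microglia without stimulation (2 calls) DESeq2 gave 1, no batch term 0, the covariate 0 and leaving out 1 library 0 to 3. Under stimulation (1 call) DESeq2 gave 2, no low-count filter 4, and leaving out cells over 10% mitochondrial UMIs, no batch term and the second batch alone each 0, with 0 to 3 leaving out 1 library. In astrocytes without stimulation (1 call) DESeq2, limma-voom and leaving out the high-mitochondrial cells gave 2 each, no low-count filter 3, no batch term 0, the covariate 0 and leaving out 1 library 0 to 2. Under stimulation (0 calls) no low-count filter gave 3, and leaving out 1 library 0 to 1. Shares of all genes under these alternatives are not given here, so these counts cannot tell the listed genes from the whole fit.

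With the replicate number as a block, the counts in oligodendrocytes were 3, 16, 2, 0 and 0, as without it. The shares of all genes were 5.05% and 13.7% for the drug without and with stimulation, and 0.793% for stimulation in cisplatin mice. This block moved 1 count, astrocytes without stimulation, from 1 to 2. Mag under stimulation (-0.03, not called) turned positive without cells over 10% mitochondrial UMIs (0.046), in the second batch alone (0.20), and without PBS stim replicate 1 (0.092) or Cisplatin stim replicate 1 (0.159), and ran from -0.131 to 0.159 over the fits that left out 1 library. Single-gene values were followed under the alternatives for each call in oligodendrocytes and for Mbp, Mag, Mog and Myrf under stimulation, and of these 576 stayed on their side of the threshold, 66 dropped below it, 4 rose past it and 4 changed sign. OPCs were few (23 to 169 per library), which limits what the OPC counts can show.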
